A study of Mus musculus with 15 samples.

Results

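Nuclear tRNAs that carry amino acids other than glycine, glutamate, valine, histidine, aspartate and lysine were followed in small RNA libraries of microglia, the macrophages that live in the brain, from mice. The members are every nuclear tRNA entry of the deposited tRNA table outside those 6 amino acids: 155 of 283 entries, from 34 anticodons and 16 amino acid classes, with initiator methionine (iMet) and selenocysteine (SeC) counted as classes of their own. The other entries are 112 nuclear tRNAs of the 6 amino acids and 16 mitochondrial tRNAs, and the whole series lists 5595 rows. Because gene copies with the same mature sequence are listed separately, entries were also summed by anticodon.

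The cells were sorted for CD11b and CD45 from mice given an injection of Methoxy-X04 (Me-X04), which stains amyloid. The 3 groups of 5 libraries were Me-X04 negative cells of wild-type (WT) mice, labelled 2 months old, and Me-X04 negative (TG Me-X04-) and Me-X04 positive (TG Me-X04+) cells of 5xFAD mice, labelled 6 months old. 5xFAD mice carry human amyloid precursor protein and presenilin transgenes under a neuronal promoter and deposit amyloid; the positive cells are those that hold dyed amyloid. Each 5xFAD mouse gave 1 library of either kind, so the TG libraries are paired by mouse. Genotype and labelled age cannot be told apart in any comparison with WT, and the study's methods state other ages.

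A tRNA carries an amino acid to the ribosome, where its anticodon reads the codon. The genes are transcribed by RNA polymerase III, which stops at a run of T. The precursor loses its 5′ leader and 3′ trailer, a CCA end is added, and some genes also lose an intron. Nucleases such as angiogenin cut mature tRNAs at the anticodon or elsewhere into fragments under stress, and short RNA libraries hold mainly such pieces, so the counts below are counts of fragments and not of intact tRNA. In human cells the 5′ fragments of alanine and cysteine tRNAs, which start with a run of G, can displace translation initiation factors from mRNA caps.

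The tRNA table gives tRNA fragments no sequence of their own. A separate table of small RNAs with no assigned annotation does, with positions in GRCm38, and 27 of its 1971 sequences lay at 14 member tRNA genes of the RefSeq annotation of GRCm38.p6. A few are shown, chosen after their values were seen, because the differences described last were measured on them. Of these, 10 carry CCA right after the last base of the gene, where a mature tRNA receives it, and 11 are trailers, which begin at the first base after the gene. The capitals mark CCA in the first 6 and, in the trailers, the run of T at which transcription ends with any base that follows it. The last line is the 5′ end of an alanine tRNA and has no capitals.
n-TAtgc10, alanine, chr5:125404245-125404264, minus strand: tccccggcatctccaCCAtt
n-TAtgc10, alanine, chr5:125404245-125404264, minus strand: tccccggcatctccaCCAta
n-TAtgc10, alanine, chr5:125404246-125404264, minus strand: tccccggcatctccaCCAt
n-TAtgc10, alanine, chr5:125404244-125404264, minus strand: tccccggcatctccaCCAttt
n-TAtgc10, alanine, chr5:125404244-125404264, minus strand: tccccggcatctccaCCAtta
n-TSgct3, serine, chr11:69063039-69063060, minus strand: tcgaatcccatcctcgtcgCCA
n-TTcgt5, threonine, chr16:13437395-13437424, plus strand: gccctctttccgtgtggatttaagaaTTTT
n-TTcgt5, threonine, chr16:13437395-13437425, plus strand: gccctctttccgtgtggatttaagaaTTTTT
n-TTcgt5, threonine, chr16:13437395-13437425, plus strand: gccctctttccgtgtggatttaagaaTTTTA
n-TAtgc11, alanine, chr13:21240945-21240971, plus strand: gcgggtgtagctcaggggtagagcgca
The n-TAtgc10 forms start 57 bases into the gene (chr5:125404250-125404321) and carry 1 to 3 further bases after CCA, while the serine form ends at CCA. The forms printed for the same position differ in their last bases. Whether the genome itself holds CCA there, and whether a short sequence also occurs at another copy, was not tested.

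Total reads were 21429882 to 26434297 per library, and UMIs, the counts of distinct molecules, on all tRNAs ranged from 5552 to 9050 in TG Me-X04+, below the 8736 to 16438 of TG Me-X04- and the 10033 to 27744 of WT, with the TG ranges overlapping slightly. No UMI value lay between 1 and 9, so an entry listed at 0 can stand for up to 9 UMIs. A sum over several entries can hide more. In TG Me-X04+ 9 UMIs are 994 to 1621 CPM, UMIs scaled to a fixed total of the tRNA table. In sorted pools, fewer cells and less RNA per cell cannot be told apart. The 4 myeloid miRNAs checked, miR-223-3p, both arms of miR-142a and miR-146a-5p, were found in every group, with a summed level in the miRNA table of 59226 to 73482 CPM in TG Me-X04+, against 103844 to 115614 for TG Me-X04- and 88828 to 119156 for WT. The 4 neuronal miRNAs summed to at most 3231 CPM in any library. The 3 oligodendrocyte miRNAs reached 365 to 639 CPM in TG Me-X04+, against 199 to 414 for TG Me-X04- and 276 to 372 for WT, and the 2 erythroid miRNAs 66.7 to 275 CPM, against 32.0 to 173 and 37.7 to 89.5. The 2 endothelial miRNAs summed to at most 291 CPM in any library. Their part in the results below was not tested. WT replicates 4 and 5 held 113460 and 108440 reads on mRNA, against at most 33178 in any other library. Calls of single anticodons, entries and sequences that end without both are given with and without them.

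The member tRNAs took a large part of all tRNA UMIs. Their share averaged 38.7% ± 3.21 in TG Me-X04+ (SD, n = 5; 35.1% to 42.1%), 32.5% ± 2.13 in TG Me-X04- (30.1% to 35.1%) and 32.8% ± 4.90 in WT (26.7% to 39.9%). The highest TG Me-X04- library and the lowest TG Me-X04+ library lay next to each other, and WT overlapped both. Mitochondrial tRNAs held 125 to 265 UMIs in TG Me-X04+, against 376 to 2176 for TG Me-X04- and 889 to 2440 for WT. Without them the share of the members among nuclear tRNA UMIs was 39.9% ± 3.43 for TG Me-X04+, 35.5% ± 1.46 for TG Me-X04- and 37.5% ± 3.61 for WT, and the ranges of all 3 groups overlapped.

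**Figure D1:**
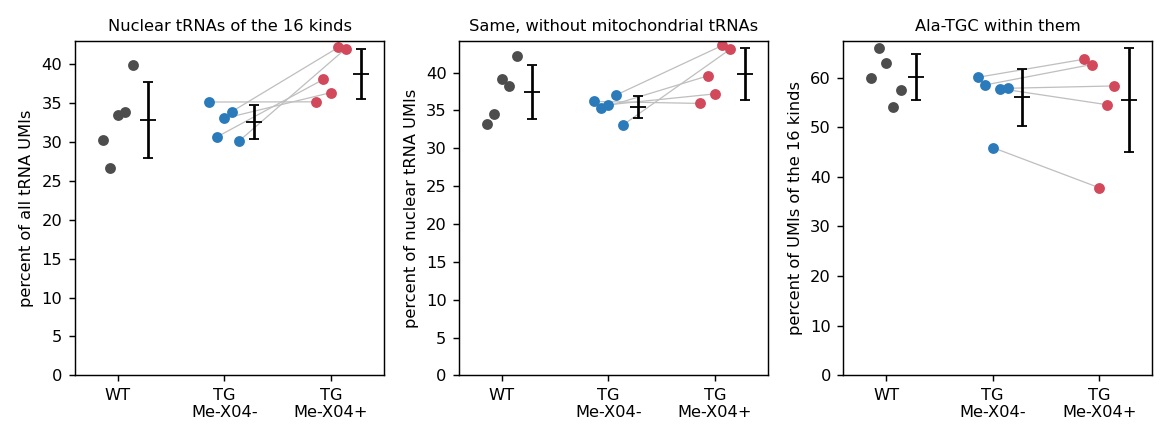
Share of UMIs per library (points; grey lines join libraries of 1 mouse; bar, mean ± SD of 5 libraries): the member tRNAs as percent of all tRNA UMIs, the same as percent of nuclear tRNA UMIs, and Ala-TGC as percent of the member UMIs. TG Me-X04+ sits at 35.1% to 42.1% in the left panel, and TG Me-X04+ replicate 3 is lowest in the right panel at 37.8%.

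A single anticodon dominated. Ala-TGC, read from 7 entries, held 34477 of 60059 member UMIs over the 15 libraries (57.4%), nearly all of them at the entry Ala-TGC-2-1 with 33845. It took 37.8% to 63.7% of the member UMIs of TG Me-X04+, 45.9% to 60.0% of those of TG Me-X04- and 54.0% to 65.9% of those of WT. The lowest values of both TG groups came from replicate 3, the same mouse. By amino acid, alanine held 62.7% of member UMIs, leucine 7.33%, glutamine 6.55%, serine 5.77% and proline 4.43%, while phenylalanine held 0.0516%.

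The number of genes did not order the levels. RefSeq lists 56 Cys-GCA genes and 11 Ala-TGC genes, against 1251 and 34477 UMIs. Phe-GAA, with 7 genes, was above 0 in 2 libraries, both WT, at 21 and 10 UMIs. Over all members 55.9% of values were 0: 15 entries and 14 anticodons were above 0 in all 15 libraries, while 33 entries were above 0 in 1 library only, 17 of these in WT replicate 5, the deepest library. Entries above 0 numbered 30 to 71 per TG Me-X04+ library, 62 to 86 per TG Me-X04- library and 45 to 130 per WT library. These counts move with depth.

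**Figure D2:**
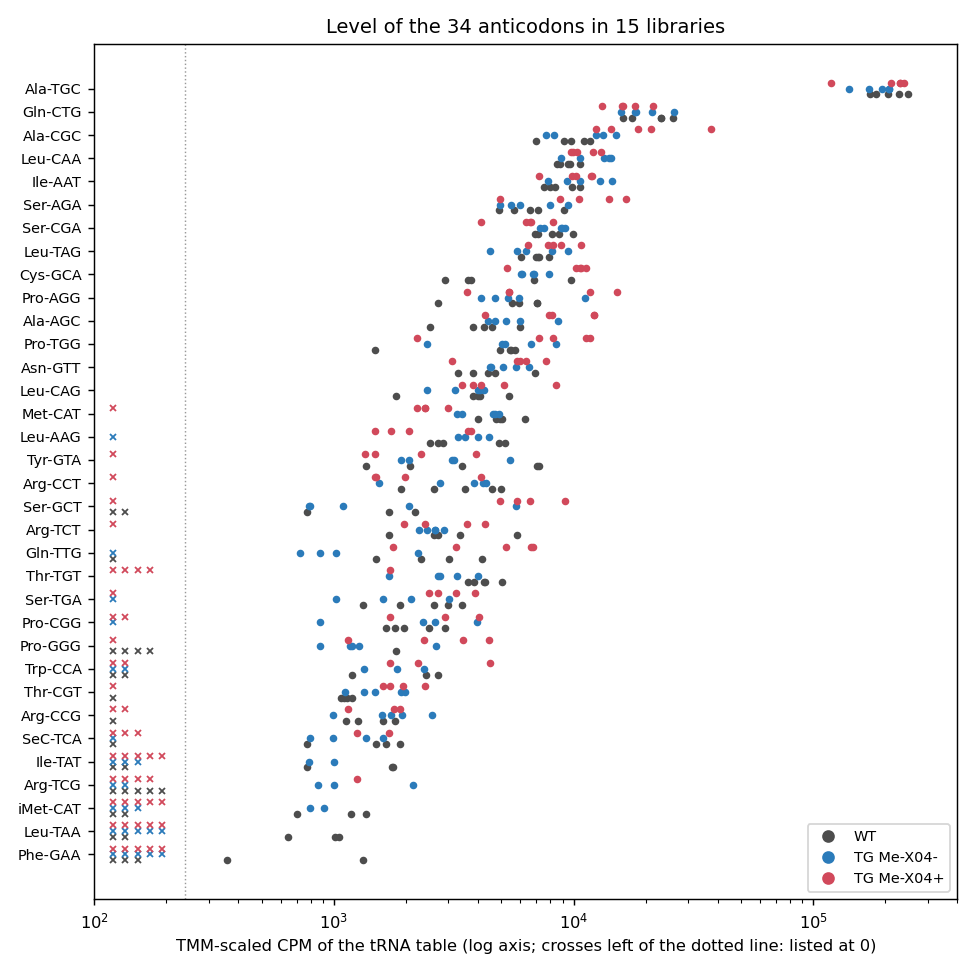
Level of each of the 34 anticodons (rows, ordered by mean) in the 15 libraries, in TMM-scaled CPM of the tRNA table on a log axis; colours are the groups and crosses are libraries listed at 0. Ala-TGC lies between 118396 and 249039 CPM, above every other anticodon, and crosses gather in the lower rows.

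Levels are given from here on as CPM of the tRNA table after TMM scaling, a scaling that assumes most tRNAs unchanged, and fold changes come from edgeR fitted to all 15 libraries. An anticodon or entry is said to have risen or fallen where its adjusted p was under 0.05 and its log2 fold change was 0.7 or more in size. The scale matters: with library sizes and factors of the miRNA table instead, the median log2 fold change of all anticodon sums moved by -0.79 in TG Me-X04+ against TG Me-X04-, by -1.12 in TG Me-X04+ against WT and by -0.36 in TG Me-X04- against WT. A rise below is therefore a rise relative to the other tRNAs of the same library. Of the members, 29 of 34 anticodons and 66 of 155 entries had enough UMIs to be tested.

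The first comparison was of TG Me-X04- with WT, amyloid-free microglia of 5xFAD mice against wild-type microglia. No member anticodon and no member entry passed in either direction, and none did among all 51 anticodon sums or all 161 entries tested (0% called at both levels). The levels of 1 member entry, Pro-TGG-2-3, did not overlap between these groups, as in 2 of 161 entries (1.24%). At an unadjusted p under 0.05 there were 1 anticodon, Leu-CAA (log2 fold change 0.38, SE 0.15, adjusted p = 0.795), and 2 entries, Ala-AGC-2-1 (0.91, SE 0.24, adjusted p = 0.145) and Cys-GCA-27-1 (0.69, SE 0.28, adjusted p = 0.779). DESeq2 also called 0 anticodons and 0 entries. Without WT replicate 2, 1 anticodon and 1 entry passed.

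The second comparison asked what differs between microglia with and without amyloid in the same mice. A member anticodon rose in TG Me-X04+ and another fell, 2 of 29, against 7 of 51 anticodon sums called over the whole table (13.7%), where 1 rose (1.96%) and 6 fell (11.8%). The median log2 fold change was 0.13 over the 29 members, -0.15 over all 51 and -2.18 over 11 mitochondrial anticodons. In TG Me-X04+ against WT, 2 rose and 1 fell, 3 of 29, against 11 of 51 in the whole table (21.6%), where 2 rose (3.92%) and 9 fell (17.6%), with medians of 0.23, -0.22 and -2.48. The rises of the whole table were thus those of Ala-CGC and Ala-AGC. Both comparisons use the same TG Me-X04+ libraries. On the scale of the miRNA table no member anticodon rose, and 8 and 13 fell.

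**Figure D3:**
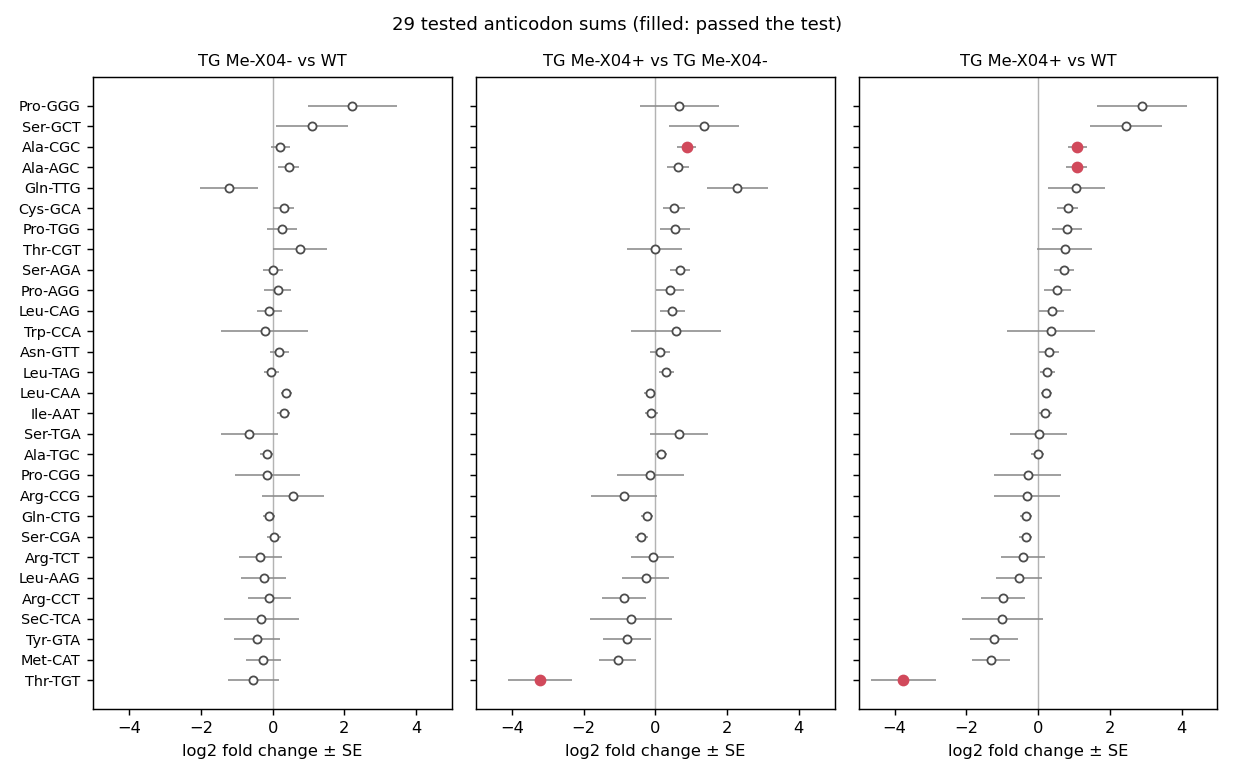
Log2 fold change ± SE of the 29 tested member anticodons (rows) in the 3 comparisons, from edgeR fitted to the whole tRNA table; filled points passed the test. Ala-CGC and Thr-TGT are filled in both comparisons of TG Me-X04+, Ala-AGC in that with WT only, and no point is filled in TG Me-X04- vs WT.

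Both belong to alanine. Of the 4 alanine and cysteine anticodons 1 rose against TG Me-X04- and 2 against WT, none fell, Cys-GCA passed in neither, and the median log2 fold change was 0.57 and 0.95. The tRNA table does not say which end of a tRNA a UMI came from. Ala-CGC stood at 9738, 6946, 11020, 11751 and 9087 CPM in WT replicates 1 to 5, at 7659, 8304, 15023, 13318 and 12353 in TG Me-X04-, and at 18585, 14316, 37394, 21025 and 12470 in TG Me-X04+. Every TG Me-X04+ library was above every WT library and above the TG Me-X04- library of its own mouse, and replicate 3 was highest in both TG groups. Ala-CGC rose by a log2 fold change of 0.88 against TG Me-X04- (SE 0.27, adjusted p = 0.0352) and of 1.09 against WT (SE 0.27, adjusted p = 0.00617), whereas on the scale of the miRNA table these were 0.04 and -0.13, neither called.

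The rise of Ala-CGC against TG Me-X04- depended on single libraries. It was no longer called without TG Me-X04- replicate 1, 2, 4 or 5 or TG Me-X04+ replicate 3, 4 or 5 (adjusted p 0.0531 to 0.127), and without TG Me-X04+ replicate 3 it was 0.55. The 2 groups alone ended it too (adjusted p = 0.0963), and with 9 UMIs for each 0 it was 0.62, under the minimum fold. The call against WT held with every library left out in turn. Part of replicate 3 came from 1 gene copy: Ala-CGC-3-2 was listed at 52 UMIs in TG Me-X04+ replicate 1, 110 in TG Me-X04+ replicate 3, 34 in TG Me-X04- replicate 4 and 0 in the other 12 libraries. Its copy Ala-CGC-3-1, above 0 in all 15 libraries, had a log2 fold change of 0.81 against TG Me-X04- (SE 0.30, adjusted p = 0.0763) and of 0.94 against WT (SE 0.30, adjusted p = 0.0348; -0.16 on the scale of the miRNA table), the latter lost without WT replicate 2 or 5, without TG Me-X04+ replicate 3 or 4 and without both WT replicates 4 and 5 (adjusted p 0.0708 to 0.139). The call of Ala-CGC-3-1 against WT also ended with 9 UMIs for each 0 (0.49, adjusted p = 0.284), read counts (adjusted p = 0.0696) and the 2 groups alone (adjusted p = 0.0655). Against TG Me-X04- this copy passed under the mouse block (0.75, adjusted p = 0.0155) and 7 other alternatives. How the counting shared reads between these copies is not given in the sources used here.

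Ala-AGC, the anticodon that reads alanine codons after its first base is edited to inosine, followed the same order of groups. Its levels were 2510 to 5975 CPM in WT (median 4213), 4388 to 8630 in TG Me-X04- (median 5225) and 4263, 7904, 12196, 12136 and 8106 in TG Me-X04+ replicates 1 to 5. TG Me-X04+ replicate 1 stayed at the level of the other groups, and the other 4 TG Me-X04+ libraries were above all of WT. The log2 fold change was 1.08 against WT (SE 0.30, adjusted p = 0.0144; -0.17 on the scale of the miRNA table) and 0.63 against TG Me-X04- (SE 0.30, adjusted p = 0.150; -0.19 on that scale). Without TG Me-X04+ replicate 3 the former was 0.93 (adjusted p = 0.0501), with 9 UMIs for each 0 it was 0.67 and so under the minimum fold, and without TG Me-X04+ replicate 1 the latter was 0.80 (adjusted p = 0.0440).

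Of single entries, 7 of 66 members did not overlap between TG Me-X04+ and WT, against 27 of 161 entries in all (16.8%). Ala-AGC-2-1 was listed at 14, 16, 25, 35 and 47 UMIs in WT, which is 1472 to 2447 CPM, at 2396 to 5178 CPM in TG Me-X04- (median 3607) and at 3835, 4194, 6897, 5231 and 6107 CPM in TG Me-X04+. Its levels did not overlap between TG Me-X04+ and WT. The median of TG Me-X04- lay between them, but its range overlapped both. It rose by 1.46 on the log2 scale against WT (SE 0.24, adjusted p = 0.000268), which was 0.43 and not called on the scale of the miRNA table, and was 0.55 against TG Me-X04- (SE 0.23, adjusted p = 0.0945; -0.12 on that scale).

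Cys-GCA-27-1, a cysteine tRNA entry, was at 1472, 1165, 2120, 2586 and 1418 CPM in WT, at 1968, 2890, 1942, 2806 and 4696 in TG Me-X04-, and at 3068, 4917, 7131, 5385 and 5780 in TG Me-X04+. It was higher in the TG Me-X04+ library of all 5 mice, and TG Me-X04+ did not overlap WT. The log2 fold change was 1.57 against WT (SE 0.27, adjusted p = 0.000268) and 0.89 against TG Me-X04- (SE 0.26, adjusted p = 0.0292), against 0.54 and 0.16, neither called, on the scale of the miRNA table. Leaving out TG Me-X04- replicate 1, 2, 3 or 4 or TG Me-X04+ replicate 2, 3 or 4 ended the call against TG Me-X04- (adjusted p 0.0527 to 0.0927). So did 9 UMIs for each 0 (0.55, adjusted p = 0.305) and read counts (adjusted p = 0.0724). Summed over 10 entries, Cys-GCA was 2911 to 9767 CPM in WT, where replicate 5 was highest, and 5286 to 11223 in TG Me-X04+. That sum did not pass against WT (log2 fold change 0.83, SE 0.30, adjusted p = 0.0519), but did without WT replicate 5 (1.20, adjusted p = 0.00532) and without WT replicates 4 and 5 (1.49, adjusted p = 0.00133). Over all alternatives its log2 fold change against WT ran from -0.40 to 1.49.

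**Figure D4:**
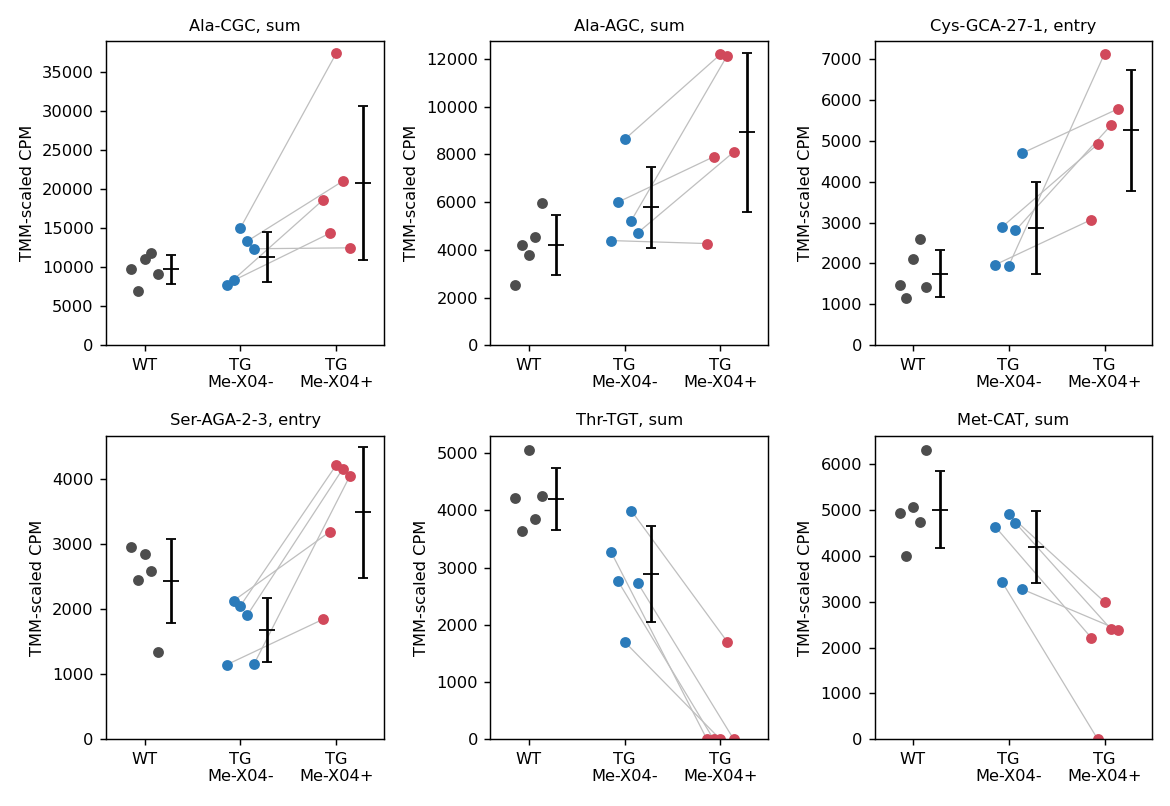
TMM-scaled CPM per library (points; grey lines join libraries of 1 mouse; bar, mean ± SD, left out where a library is listed at 0) of 4 anticodon sums and 2 entries. TG Me-X04+ reaches 37394 for Ala-CGC and 7131 for Cys-GCA-27-1, and 4 of 5 TG Me-X04+ libraries are at 0 for Thr-TGT.

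At the level of entries, 2 members rose and 1 fell in TG Me-X04+ against TG Me-X04-, 3 of 66, against 21 of 161 over the whole table (13%; 6 rose, 3.73%, and 15 fell, 9.32%). Against WT 3 rose and 2 fell, 5 of 66, against 26 of 161 (16.1%; 7 rose, 4.35%, and 19 fell, 11.8%). With the mouse as a block, 6 entries rose and none fell against TG Me-X04-, 2 of them among the 3 named here, and 1 anticodon rose and none fell. The other entry that rose against TG Me-X04- was Ser-AGA-2-3, 1 of 6 listed copies of a serine tRNA, at 1148, 2129, 2050, 1904 and 1150 CPM in TG Me-X04- and at 1841, 3182, 4209, 4154 and 4035 in TG Me-X04+, with WT at 1337 to 2944. It was higher in TG Me-X04+ in 5 of 5 mice, at 1.06 on the log2 scale (SE 0.30, adjusted p = 0.0215). On the scale of the miRNA table it was 0.38, not called. The call ended with TG Me-X04- replicate 5 (adjusted p = 0.0602) or TG Me-X04+ replicate 3 (0.0502) left out. With 9 UMIs for each 0 it ended as well (0.72, adjusted p = 0.128).

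Thr-TGT, a threonine tRNA, was the anticodon that fell. It was listed at 42, 32, 72, 61 and 119 UMIs in WT, at 41, 42, 16, 39 and 30 in TG Me-X04-, and at 0, 0, 0, 10 and 0 in TG Me-X04+. As listed, all 5 TG Me-X04+ libraries were below all WT libraries and below the TG Me-X04- library of the same mouse. Thr-TGT sums 3 entries, each of which can hide up to 9 UMIs at 0, so this order is not settled. The fitted log2 fold change was -3.22 against TG Me-X04- (SE 0.90, adjusted p = 0.0291) and -3.76 against WT (SE 0.90, adjusted p = 0.00617), values that depend on how a 0 is treated. With 9 UMIs put in place of each 0 they were -0.17 (adjusted p = 0.419) and -0.58 (adjusted p = 0.00178), both under the minimum fold. Read counts in place of UMIs ended both calls (adjusted p 0.181 and 0.101), the mouse block ended that against TG Me-X04- (adjusted p = 0.0575), and so did leaving out TG Me-X04- replicate 2, 4 or 5 or TG Me-X04+ replicate 3 or 5 (adjusted p 0.0530 to 0.0726).

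Its entry Thr-TGT-3-1 was at 11, 12, 26, 27 and 41 UMIs in WT, at 11, 13, 0, 12 and 17 in TG Me-X04-, and at 0 in all 5 TG Me-X04+ libraries. With 9 UMIs allowed in each TG Me-X04+ library it was at least 1.31-fold lower than in WT (edgeR adjusted p = 0.00560). With 9 UMIs in place of each 0 the call against WT stayed, as in all 27 alternatives, but the log2 fold change against TG Me-X04- was -0.27 (adjusted p = 0.729), so no difference from TG Me-X04- was detectable at this depth, although the entry counts among the 3 called there. The call of Thr-TGT-3-1 against TG Me-X04- also ended without WT replicates 4 and 5 (adjusted p = 0.0523). Listed at 0 in every TG Me-X04+ library, this entry passed the filter only through the other groups and could only be lower. Its calls, also those kept under the alternatives, are therefore a description. Thr-CGT, the other threonine anticodon tested, had log2 fold changes of -0.02 and 0.74 (adjusted p = 0.983 and 0.451).

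Elongator methionine tRNA was lower in TG Me-X04+ by its listed levels, without passing as a sum. It is named because of those values. Met-CAT was at 3985 to 6297 CPM in WT (median 4919), at 3270 to 4901 in TG Me-X04- (median 4627) and at 2217, 0, 2992, 2393 and 2390 in TG Me-X04+. The listed levels of TG Me-X04+ overlapped neither other group. That separation was seen in 2 of 51 anticodon sums against TG Me-X04- (3.92%) and in 11 of 51 against WT (21.6%). Met-CAT sums 3 entries, and each entry listed at 0 can hide up to 9 UMIs, so the true levels may overlap. Among entries, Met-CAT-1-2 was the 1 member of 66 whose listed levels did not overlap between TG Me-X04+ and TG Me-X04-, against 10 of 161 in all (6.21%). Hidden UMIs could close that gap too. The log2 fold changes of the Met-CAT sum were -1.05 (SE 0.52, adjusted p = 0.150) and -1.31 (SE 0.52, adjusted p = 0.0687). Met-CAT-1-2 fell against WT, from 11 to 69 UMIs in WT to 0, 0, 0, 0 and 10 in TG Me-X04+ (log2 fold change -3.00, SE 1.04, adjusted p = 0.0481). That call was ended by 18 of 27 alternatives, among them leaving out any WT replicate other than 2. Without both WT replicates 4 and 5 it was -2.69 (adjusted p = 0.213). Initiator methionine tRNA, which starts every protein, was at 0 in every TG Me-X04+ library and above 0 in 2 of TG Me-X04- and 3 of WT, at 10 to 33 UMIs, and was not tested.

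Leucine, serine and selenocysteine tRNAs, which have a long variable arm, gave no call among 9 tested of 10 anticodons, with medians of 0.30 and 0.23 in the comparisons of TG Me-X04+ with TG Me-X04- and with WT. Ser-AGA was at 4896 to 9098 CPM in WT and at 4945, 8798, 10585, 16581 and 14029 in TG Me-X04+ replicates 1 to 5. On the log2 scale it was 0.70 higher than in TG Me-X04- (SE 0.28, adjusted p = 0.0905) and 0.72 higher than in WT (SE 0.28, adjusted p = 0.0687), and both passed with TG Me-X04+ replicate 1 left out (adjusted p = 0.0365 and 0.0130), while on the scale of the miRNA table they were -0.12 and -0.47, neither called. The positive cells of all 5 mice had less Ser-CGA than the negative ones, but the log2 fold change of -0.39 did not pass (SE 0.19, adjusted p = 0.150), whereas on the scale of the miRNA table it was -1.20 (adjusted p = 0.00244) and -1.47 against WT (adjusted p = 0.000206). Leu-CAA and Leu-TAG, both above 0 in all libraries, had log2 fold changes against TG Me-X04- of -0.15 (SE 0.15) and 0.30 (SE 0.21). On the scale of the miRNA table Leu-CAA was called at -0.90 against TG Me-X04- (adjusted p = 0.00739) and -0.87 against WT (adjusted p = 0.00488). On that scale Leu-TAG was called against WT at -0.83 (adjusted p = 0.0297). SeC-TCA, which inserts selenocysteine at recoded stop codons, was above 0 in 2 libraries of TG Me-X04+ and 4 of either other group, at 10 to 46 UMIs (log2 fold change against WT -0.99, SE 1.12, adjusted p = 0.484).

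The anticodons whose genes can hold an intron, Tyr-GTA, Arg-TCT, Leu-CAA and Ile-TAT, gave no call among the 3 tested. Of isoleucine, phenylalanine, tryptophan, tyrosine and proline tRNAs, 7 of 9 anticodons were tested and none passed in either comparison of TG Me-X04+. Among them Ile-AAT was at 7158 to 11935 CPM in TG Me-X04+, 7811 to 14440 for TG Me-X04- and 7515 to 10626 for WT, and Pro-AGG at 3581 to 15213, 4098 to 11188 and 2733 to 7048 in the same order. Their groups overlapped. Arginine, asparagine, glutamine and threonine tRNAs gave Thr-TGT as the only call among 8 tested, and Gln-CTG, the second most abundant member, had log2 fold changes of -0.23 (SE 0.17, adjusted p = 0.357) and -0.33 (SE 0.17, adjusted p = 0.149), but of -1.06 (adjusted p = 0.00104) and -1.51 (adjusted p = 1.59e-05) on the scale of the miRNA table. Ala-TGC itself, at 173232 to 249039 CPM in WT and 118396 to 238599 in TG Me-X04+, had log2 fold changes of 0.16 (SE 0.18) and -0.01 (SE 0.18), neither called, but -1.10 against WT on the scale of the miRNA table (adjusted p = 0.00488). The 27 members not called in TG Me-X04+ against TG Me-X04- ran from -1.05 to 2.29, the highest being Gln-TTG, which was at 725 to 2238 CPM or 0 in TG Me-X04- and at 1767 to 6788 in TG Me-X04+ (adjusted p = 0.0663).

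The fragments printed above were tested in their own table of 1971 uncharacterized sequences, of which 998 passed the filter, 16 of the 27 at member genes among them. This comparison was added after the files had been seen. In TG Me-X04+ 6 of the 16 were lower than in TG Me-X04- and none higher, against 58 of 998 called over the table (5.81%), of which 56 were lower (5.61%) and 2 higher (0.2%). Against WT 8 of 16 were lower and none higher, against 71 of 998 called (7.11%), 66 lower (6.61%) and 5 higher (0.501%). Levels did not overlap between TG Me-X04+ and TG Me-X04- in 4 of 16 members, against 72 of 998 sequences (7.21%), between TG Me-X04+ and WT in 9, against 88 (8.82%), and between TG Me-X04- and WT in 1, against 7 (0.701%). In TG Me-X04- against WT none of the 16 passed, nor did any of the 998 (0% called by edgeR; 3 members and 39 sequences at an unadjusted p under 0.05, and 0 members by DESeq2). Of the 16, 6 were at 0 in every TG Me-X04+ library, among them 2 of the 6 called against TG Me-X04- and 3 of the 8 called against WT. These passed the filter only through the other groups and could only be lower, so the counts are a description. Nor are they separate results, since 12 of the 16 tested come from n-TAtgc10 or n-TTcgt5 and overlap each other. The 27 sequences held 8045 of 370123 UMIs of that table (2.17%), 5187 of them on 7 forms of n-TAtgc10 and 1797 on 7 of n-TTcgt5.

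The 3′ ends of the alanine gene n-TAtgc10 were the most abundant. The form tccccggcatctccaCCAtt was at 7894, 12954, 11608, 8232 and 18439 CPM of the uncharacterized table in WT, at 10465, 6890, 3610, 6615 and 6752 in TG Me-X04-, and at 3031, 2135, 524, 1861 and 3112 in TG Me-X04+. TG Me-X04+ was below all libraries of both other groups and below the TG Me-X04- library of all 5 mice, and replicate 3 was lowest in both TG groups. It fell by a log2 fold change of -1.70 against TG Me-X04- (SE 0.37, adjusted p = 0.00590) and -2.48 against WT (SE 0.38, adjusted p = 5.75e-05). The form tccccggcatctccaCCAta fell by -2.09 and -2.80, and the shorter tccccggcatctccaCCAt by -1.91 and -2.86 (adjusted p at most 0.00278). An alternative library size was the total UMIs of the annotated tables, those of miRNA, tRNA and other RNA. It leaves out the uncharacterized table itself. With it the calls of the forms ending in CCAtt and CCAt against TG Me-X04- ended, at -0.72 (adjusted p = 0.137) and -0.96 (adjusted p = 0.0530). That of the form ending in CCAta stayed. The form tccccggcatctccaCCAttt, at 18 to 65 UMIs in WT and TG Me-X04- and 0 in every TG Me-X04+ library, was at least 2.86-fold lower than in TG Me-X04- and at least 4.55-fold lower than in WT, with 9 UMIs allowed per library listed at 0. With the mouse as a block it was not called (adjusted p = 0.200). The printed form ending in CCAtta was called in both comparisons. It was at 0 in every TG Me-X04+ library but also in TG Me-X04- replicates 3 and 4, so these groups overlapped and it was lower in 3 mice. Its call against TG Me-X04- ended with total UMIs of the annotated tables (adjusted p = 0.0607). In the tRNA table, which is counted apart from these sequences, the sum of Ala-TGC did not pass in either comparison (log2 fold change 0.16 and -0.01).

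Of the 6 trailers tested of the threonine gene n-TTcgt5, pieces cut from the precursor, 1 was called against TG Me-X04- and 3 against WT, all lower in TG Me-X04+, and the others did not pass. The form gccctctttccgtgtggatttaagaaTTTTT was at 31, 25, 56, 67 and 185 UMIs in WT, at 42, 51, 25, 33 and 50 in TG Me-X04-, and at 0, 28, 16, 11 and 21 in TG Me-X04+. WT replicate 5 stood far above the rest. In CPM TG Me-X04+ did not overlap WT and was lower in all 5 mice. The log2 fold change was -2.43 against WT (SE 0.56, adjusted p = 0.00466) and -1.63 against TG Me-X04- (SE 0.55, adjusted p = 0.0827). The former was -1.84 without WT replicates 4 and 5 (adjusted p = 0.130). With total UMIs of the annotated tables it was -0.97 (adjusted p = 0.214). The form gccctctttccgtgtggatttaagaaTTTT, at 0 in 4 TG Me-X04+ libraries and 15 UMIs in replicate 5, against 17 to 37 in TG Me-X04-, passed in both comparisons (adjusted p = 0.0257 and 0.00518), but not without WT replicates 4 and 5 (0.107 and 0.141). Against TG Me-X04- that call also ended with the mouse block (0.113), the 2 groups alone (0.246) and total UMIs of the annotated tables (0.217). Leaving out WT replicate 5 or TG Me-X04+ replicate 2, 3 or 4 ended it too (0.0531 to 0.0665). The call against WT ended with the 2 groups alone (0.0586), total UMIs of the annotated tables (0.0967) and without WT replicate 5 (0.0644). The form with a run of 6 T had log2 fold changes of -1.02 (adjusted p = 0.999) and -1.86 (adjusted p = 0.185), and was higher in TG Me-X04+ in 2 mice. The printed form ending in TTTTA was called against WT (adjusted p = 0.0139), but not without WT replicates 4 and 5 (adjusted p = 0.0736). With the mouse as a block, 3 of the 6 remained called against TG Me-X04-, in a fit where 8 members passed the filter.

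Not every 3′ end at a member gene was called lower, though none of the 16 sequences tested had a log2 fold change above 0 in either comparison of TG Me-X04+. The serine form tcgaatcccatcctcgtcgCCA of n-TSgct3, above 0 in all 15 libraries, was at 437 to 1245 CPM in TG Me-X04+, 1027 to 1308 for TG Me-X04- and 722 to 2557 for WT, and its log2 fold changes of -0.41 (SE 0.53) and -0.71 (SE 0.53) did not pass. The 5′ alanine form gcgggtgtagctcaggggtagagcgca was listed in 3 libraries only, at 12 UMIs in TG Me-X04- replicate 3 and 10 in TG Me-X04+ replicates 3 and 5. With the total UMIs of the annotated tables as library size, which leaves out the uncharacterized table, the median of all sequences moved by 0.94 against TG Me-X04-. Against WT it moved by 1.37, and 2 and 6 of 11 members tested were still called, all lower.

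**Figure D5:**
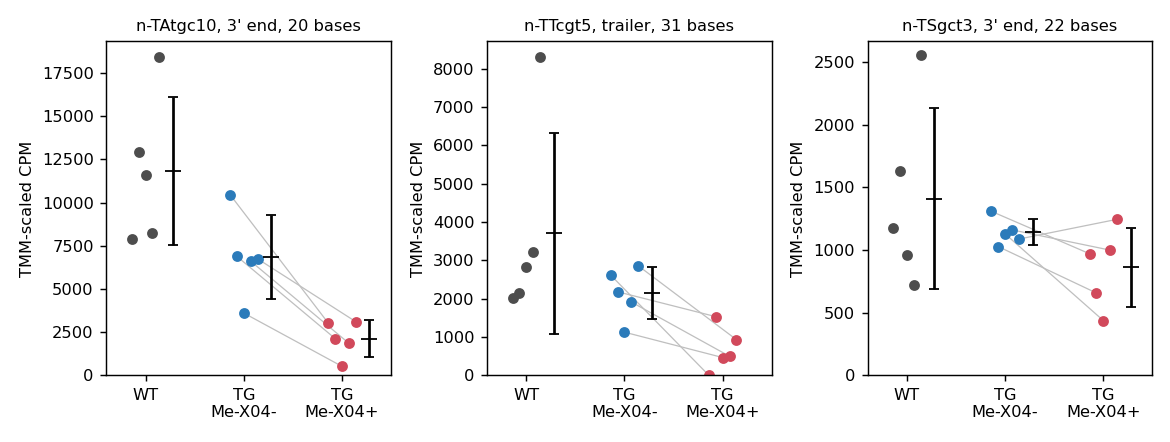
CPM of the uncharacterized table per library (points; grey lines join libraries of 1 mouse; bar, mean ± SD, left out where a library is listed at 0) of 3 sequences at tRNA genes. The n-TAtgc10 3′ end falls from 3610 to 10465 CPM in TG Me-X04- to 524 to 3112 in TG Me-X04+, while the n-TSgct3 3′ end overlaps in all groups.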

How the data were processed

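Small RNA libraries were prepared by the authors with a QIAseq kit that adds unique molecular identifiers, and reads were assigned by the provider's analysis service. The deposited tables hold unnormalized counts, UMI counts and read counts per entry. Of tools and builds, the processing notes of the submitters list edgeR 3.24.3 and GRCm38, and the aligner is not given in the sources used here. Positions of uncharacterized sequences were read as 0-based starts and are printed 1-based. RefSeq gene positions are of GRCm38.p6.

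Entries, anticodon sums and uncharacterized sequences were each fitted as whole tables with edgeR 4.0.16 under R 4.3.3, with its low-count filter filterByExpr, TMM scaling, all 15 libraries in 1 model without a block, and a quasi-likelihood test whose p-values were adjusted by Benjamini-Hochberg over all features tested. A call required adjusted p below 0.05 and a log2 fold change of 0.7 or more in size. The standard error is the log2 fold change over the square root of F. P-values weigh a difference against the spread between libraries, and the main fit treats the libraries of 1 mouse as independent. A fold against a group at 0 assumes 9 UMIs per library. The scripts were tested on simulated data.

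Named were every anticodon called, the 10 most abundant anticodons, iMet-CAT, SeC-TCA, Ala-AGC-2-1, Cys-GCA-27-1 and the 3 largest rises and falls among called entries; Met-CAT, Gln-TTG, Thr-CGT and the sequences were named after their values were seen. The members, lists and tests were chosen with earlier results of these data known. Alternatives were other scalings, DESeq2 1.42.0, other filters, 9 UMIs for each 0, read counts, nuclear rows alone, 2 groups alone, the block and each library left out. The fits without WT replicates 4 and 5 and the test of sequences were added after the data were seen. TG libraries of the same number come from the same mouse by their labels, and the correlation of their deviations from group means was -0.04 to 0.54 for the same mouse and -0.43 to 0.22 for different mice. No 2 libraries of a group differed by less than sampling noise.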

Additional observations from a re-analysis of the deposited data

Results flagged for a closer look

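Of 66 group values tested for a library that stands apart from the other 4 of its group, 6 did so. Chance alone gives about 1 in 20, but the values share libraries, so 6 cannot be weighed against that rate. Pro-AGG reached 11188 CPM in TG Me-X04- replicate 3, against 4098 to 5931 in the other 4 libraries. Ala-TGC took 45.9% of the member UMIs in the same library, against 57.8% to 60.0%. In TG Me-X04+ replicate 3, from the same mouse, Ala-TGC stood at 118396 CPM, against 211766 to 238599. Cys-GCA was at 5286 CPM in TG Me-X04+ replicate 1, against 10240 to 11223 in the others. Thr-TGT was at 1709 CPM in TG Me-X04+ replicate 4 and Met-CAT-1-2 at 1090 CPM in TG Me-X04+ replicate 5, with the other 4 libraries at 0 in both. Both values are 10 UMIs, the lowest count listed above 0, so the floor alone was enough to flag them.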

How the results depend on the processing

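Counts of called members are given here as main value, then alternatives. Against TG Me-X04-, the 2 anticodons called became 8 (all lower) with factors of the miRNA table, 1 with a minimum of 10 UMIs in every library, 1 with 9 UMIs for each 0 (not among the 2), 1 with read counts, 0 with the 2 groups alone, and 1 with the replicate block. Against WT, 3 anticodons became 5 with library size in place of TMM, 5 with DESeq2 and 13 (all lower) with factors of the miRNA table. For entries against TG Me-X04-, 3 became 6 (5 higher) with library size, 5 with DESeq2, 6 with total UMIs of the annotated tables, 15 (all lower) with miRNA factors, 9 with no filter, 6 with 9 UMIs for each 0 (none of the 3) and 6 with the replicate block. For entries against WT, 5 became 8 (7 higher) with library size, 10 with DESeq2, 23 (all lower) with miRNA factors, 11 with no filter, 3 with at least 10 UMIs per library, 18 with 9 UMIs for each 0, 3 with the 2 groups alone and 3 without WT replicates 4 and 5. For entries of TG Me-X04- against WT, 0 became 1 with no filter and 1 with the replicate number as block. Of the sequences, 6 against TG Me-X04- became 2 with total UMIs of the annotated tables, 3 with at least 10 UMIs per library and 3 with the replicate block, and 8 against WT became 3 with at least 10 UMIs per library and 5 without WT replicates 4 and 5. With single libraries left out, anticodons ran from 0 to 4 against TG Me-X04-, 2 to 7 in TG Me-X04+ against WT and 0 to 1 in TG Me-X04- against WT, entries from 1 to 8, 3 to 8 and 0 to 1, and sequences from 5 to 7, 7 to 8 and 0 to 0. The 0 anticodons against TG Me-X04- arose without TG Me-X04- replicate 2, 4 or 5 or TG Me-X04+ replicate 3 or 5, the 4 and the 7 without TG Me-X04+ replicate 1, the 8 entries without TG Me-X04- replicate 3 (against TG Me-X04-) and without WT replicate 2 or TG Me-X04+ replicate 5 (against WT). Some fold changes of TG Me-X04+ against WT turned negative with miRNA factors. Among named members called in either fit these were Ala-AGC -0.17, Ala-CGC -0.13, Ile-AAT -0.96, Leu-CAA -0.87, Leu-TAG -0.83 and Ala-CGC-3-1 -0.16. Other members changed sign without a call, as Ser-AGA did at -0.47. Over all alternatives Cys-GCA against WT went as low as -0.40 and Pro-AGG as low as -0.76. WT libraries share only numbers with TG libraries. The cause of these shifts was not tested, other than that the 2-group and filtered fits hold fewer libraries or features. Depth limits the low members, since 9 UMIs hidden behind a 0 would be 994 to 1621 CPM in TG Me-X04+ before TMM scaling.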
